A study of Homo sapiens with 6 samples.

Results

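Chondroitin sulfate and dermatan sulfate are long sugar chains that are built on proteoglycan core proteins in the Golgi apparatus. A short linker of xylose, galactose and glucuronic acid is first attached to the core protein, and a polymerase complex then extends it with alternating glucuronic acid and N-acetylgalactosamine (GalNAc). An epimerase converts some of the glucuronic acid to iduronic acid, which makes the chain dermatan sulfate, and sulfotransferases add sulfate at fixed carbons of the sugars. CHST14 encodes dermatan 4-O-sulfotransferase, which sulfates GalNAc beside iduronic acid, and inherited loss of CHST14 or of the epimerase DSE causes the musculocontractural type of Ehlers-Danlos syndrome.

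The genes described are 10 enzymes of this pathway, taken by their symbols from the 26255 gene symbols of the deposited tables. XYLT2 and B4GALT7 build the linker, CHSY1, CHPF and CHPF2 belong to the polymerase complex, DSE is the epimerase, and CHST14, CHST11, CHST3 and CHST15 are sulfotransferases. Expression was measured by RNA sequencing in BxPC-3, an established human pancreatic cancer cell line, with 6 libraries in 3 groups of 2. The Parent cells were untreated, the NC-1 cells received a negative control treatment, and the miR-4711-5p cells received the microRNA miR-4711-5p. RNA was taken 36 h after transfection. All 3 groups are the same line, with no genetic change named in the labels. The labels do not say that the 2 libraries of a group came from separate cultures, so that p-values measure only the spread between these libraries, which may be technical. Values are fragments per kilobase of transcript, scaled for sequencing depth (FPKM), and a mean over 2 libraries is given with its SD. The test was limited to genes that averaged 1 FPKM or more, which left 12040 genes and 8 of the 10 enzymes.

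FPKM summed to 493145 to 550772 per library, and 16597 to 17305 genes were above 0. Read counts are not among the values used, and depth relative to the first Parent library was estimated from the steps of the low values at 0.751 to 1.21. All 6 ductal epithelial markers were expressed, and KRT7, KRT8, KRT18 and KRT19 reached up to 1842 FPKM. The 6 summed to 6163 and 5787 FPKM in Parent, 5447 and 5165 FPKM in NC-1, and 5234 and 5179 FPKM in miR-4711-5p. With miR-4711-5p, 1 was higher and 2 lower than in Parent by limma (all genes tested: 18.7% and 24.7%). Against NC-1, 3 were higher and 3 lower (18.4% and 21.2%). In NC-1 against Parent, 0 were higher and 3 lower (12.1% and 15.1%). The 6 fibroblast markers summed to 1.31 to 2.47 FPKM in the 6 libraries. The 6 acinar and endocrine markers summed to 0.73 and 1.57 FPKM in Parent, 2.73 and 2.62 FPKM in NC-1, and 3.18 and 5.10 FPKM in miR-4711-5p, with 4 of them at 0 in every library. Of these 6, 5 were under 1 FPKM in every library, and a single gene made up the whole of the highest sum, 5.10 FPKM. The 6 blood and endothelial markers summed to 3.96 and 3.78 FPKM in NC-1 and to 1.22 to 1.63 FPKM in the other groups, again with 5 of them under 1 FPKM in every library. The part of all these marker differences in the results was not tested. In these bulk samples, less RNA per cell and fewer cells that express a gene cannot be told apart. Of all genes tested, 2255 were higher and 2975 lower in miR-4711-5p than in Parent by limma at an adjusted p below 0.05, 2214 were higher and 2549 lower than in NC-1, and 1456 were higher and 1823 lower in NC-1 than in Parent. When the libraries were set to equal FPKM sums, the medians of all genes moved up by 0.12, 0.05 and 0.07 on the log2 scale, and the same counts became 4010 higher and 1775 lower, 2923 higher and 2083 lower, and 2327 higher and 1000 lower.

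A microRNA pairs with messenger RNAs mainly through its seed, bases 2 to 8 from its 5′ end, and the messenger RNAs it pairs with are often degraded or less translated. The mature miR-4711-5p sequence was taken from RefSeq (GRCh38.p14, chr1:59733269-59733291, minus strand), and its seed is in capitals. The genes' annotated transcripts (GENCODE lifted to GRCh37, the sequence of hg19) were searched on the sense strand for an 8mer, which is CTGATGCA, for a 7mer-m8, which is CTGATGC without the A, and for a 7mer-A1, which is TGATGCA without the leading C. All 7mer and 8mer matches of the 10 enzymes, and the 8mer of PAPSS2, which supplies the sulfate donor, are shown in capitals within 30 bases of the transcript, because they show where the seed could pair.
miR-4711-5p: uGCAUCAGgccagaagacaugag
CHST14, 3′ UTR, 8mer: ctgccatttttCTGATGCAtttatttaaaa
CHST14, coding sequence, 8mer: gaggctggaggCTGATGCAaatcaggtgct
CHSY1, 3′ UTR, 7mer-m8: ttgtaaatagcCTGATGCtcatttggaaaa
CHST11, 3′ UTR, 7mer-m8: tccagccattgCTGATGCttctcagttgaa
CHST11, 3′ UTR, 7mer-A1: tcaggttggtgTGATGCAgactaagggttt
XYLT2, coding sequence, 7mer-m8: ttgagatgtggCTGATGCcccaagggtcgc
PAPSS2, 3′ UTR, 8mer: aaaggatggccCTGATGCAgcagcagcgcc

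CHST14 lies on chromosome 15 (chr15:40763183-40765357, GRCh37, plus strand), and no other annotated gene overlaps it. Its canonical transcript has 2175 nt, of which 1128 nt are coding and 814 nt are 3′ UTR. The 8mer of the 3′ UTR lies at chr15:40765259-40765266, from base 716 of the UTR, where 70.0% of the bases around it are A or T. The coding 8mer lies at chr15:40764323-40764330, across codons 304 to 306. Both are present in 2 of 2 coding transcripts. CHSY1, of the polymerase complex, has its 7mer-m8 at chr15:101716057-101716063 on the minus strand, near the end of its 3′ UTR (base 1530 of 1661), and the pairing there runs through 9 bases from base 2. CHST11, which sulfates GalNAc of chondroitin, has its matches at chr12:105153143-105153149 and chr12:105153754-105153760 in its 3′ UTR, and XYLT2 has its match at chr17:48434545-48434551 in its coding sequence.

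A 7mer or 8mer was thus present in the longest 3′ UTR of 3 of the 10 enzymes, or 2 of the 8 that were tested, and an 8mer in 1, CHST14. Among the 11185 tested genes with an annotated 3′ UTR, 2058 (18.4%) held a 7mer or 8mer there, 404 (3.61%) held an 8mer, and 24.8% held a 7mer or 8mer in the coding sequence. DSE, CHST3, CHST15, CHPF, CHPF2 and B4GALT7 held none of the matches in the longest 3′ UTR or in the coding sequence. Such a match is a description of the letters and not a measured site of pairing. The map of seed matches shows the positions along each transcript, with PAPSS2 added, a gene that fell with miR-4711-5p. Matches of other genes are not printed. The 3′ UTRs of GLCE and HS2ST1, which act on the related chain heparan sulfate, each hold an 8mer. Neither GLCE nor HS2ST1 was called in the same direction against both controls. The 3′ UTRs of SLC35D1 and SLC35B4, which were tested and supply the pathway, hold a 7mer. Neither of these was called in the same direction against both controls.

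**Figure D1:**
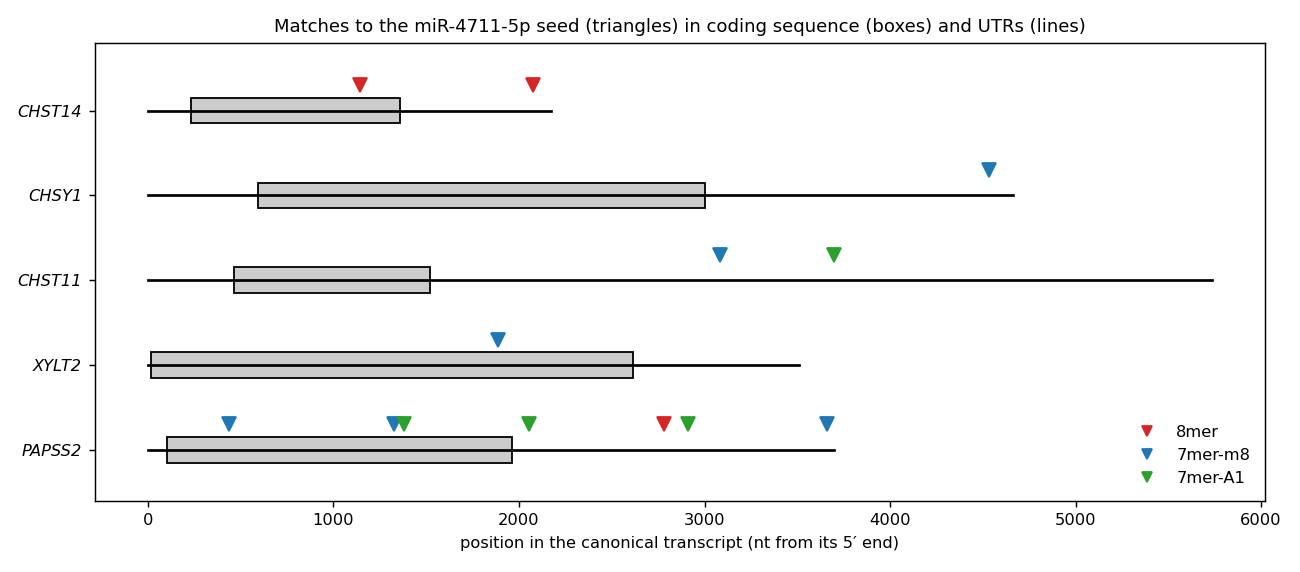
Positions of 8mer, 7mer-m8 and 7mer-A1 matches to the miR-4711-5p seed (triangles) along the canonical transcripts of CHST14, CHSY1, CHST11, XYLT2 and PAPSS2, in nt from the 5′ end; boxes are coding sequence and lines are UTRs. CHST14 has an 8mer in its coding sequence and another near the end of its 3′ UTR of 814 nt, and the other 3 enzymes have 7mers alone.

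CHST14 fell with miR-4711-5p to 0.248 times its mean in Parent and 0.251 times its mean in NC-1. It had 13.6 and 13.0 FPKM in Parent, 13.2 and 13.0 FPKM in NC-1, and 3.22 and 3.37 FPKM in miR-4711-5p. The 4 control libraries lay close together and both miR-4711-5p libraries lay far below them, without overlap. The group means were 13.3 ± 0.436, 13.1 ± 0.114 and 3.29 ± 0.106 FPKM (SD, n = 2). On the log2(FPKM + 1) scale, CHST14 changed by -1.73 ± 0.06 (SE) relative to Parent (limma adjusted p = 3.95e-06). Relative to NC-1 it changed by -1.72 ± 0.06 (limma adjusted p = 5.15e-06). NC-1 and Parent differed by -0.02 (95% interval -0.16 to 0.12, limma adjusted p = 0.865). Counted from the largest decrease, CHST14 was in place 21 of the 12040 genes against Parent and in place 30 against NC-1. The decrease kept its call in 13 of 13 alternative analyses in both comparisons, at -1.98 to -1.61 against Parent and -1.96 to -1.68 against NC-1. With 2 libraries per group, exact permutation of the labels reaches a two-sided p of 0.3333 at best, so that the model fitted across all genes is the only test given.

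**Figure D2:**
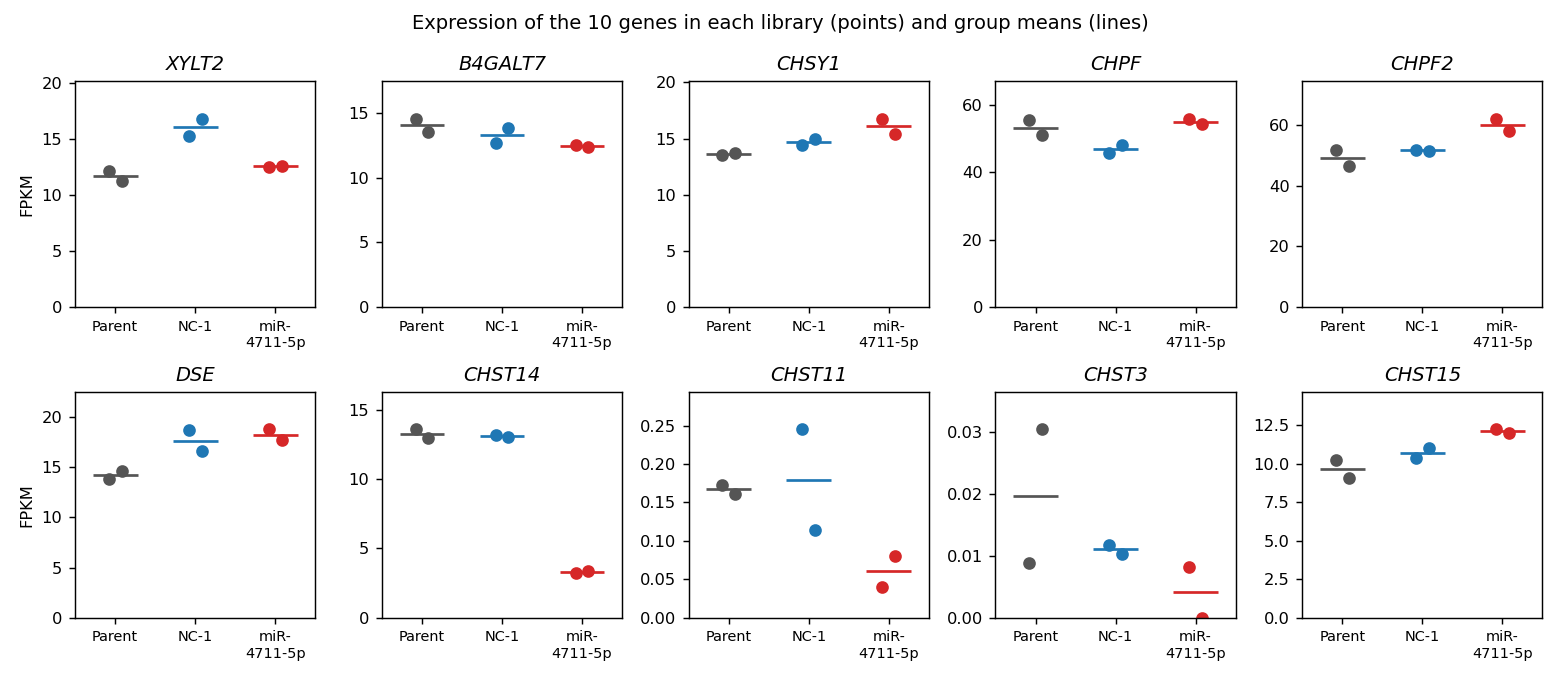
FPKM of the 10 enzymes in each library (points, n = 2 per group) with group means (lines), each panel on its own linear axis from 0. The miR-4711-5p libraries stand at 3.22 and 3.37 FPKM of CHST14 against 13.0 to 13.6 FPKM in the 4 control libraries. The other tested enzymes change less relative to their own level.

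The changes of the other 7 tested enzymes were smaller and went in both directions, from -0.33 to 0.34 on the log2 scale. Against Parent, 5 of the 8 tested enzymes passed the threshold, CHST14 downwards and DSE, CHST15, CHSY1 and CHPF2 upwards, where 43.4% of all tested genes passed it in either direction. Against NC-1, CHST14 and XYLT2 were lower and CHPF and CHPF2 were higher, 4 of 8 where 39.6% of all genes passed. Without regard to the test, both miR-4711-5p libraries were above both Parent libraries for 5 of the 8 and below them for 2, where this held for 35.0% and 39.3% of all genes. They were above both NC-1 libraries for 4 of the 8 and below them for 3, where each held for 36.2% of all genes. Both NC-1 libraries were above Parent for 4 of the 8 and below for 1, where 31.3% and 34.2% of all genes were. The median log2 change of the 8 enzymes was 0.16 against Parent and 0.08 against NC-1, beside -0.01 and 0.00 for all genes tested. Between the controls, XYLT2 and DSE were higher in NC-1 than in Parent, 2 of 8 where 27.2% of all genes passed. CHST14 was the only enzyme of the 8 called lower against both controls and CHPF2 the only enzyme called higher against both, where 15.4% and 10% of all genes were so called. The number called rested on single libraries, since without the first miR-4711-5p library CHST14 alone remained called against Parent and 1 enzyme against NC-1, which was again CHST14.

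**Figure D3:**
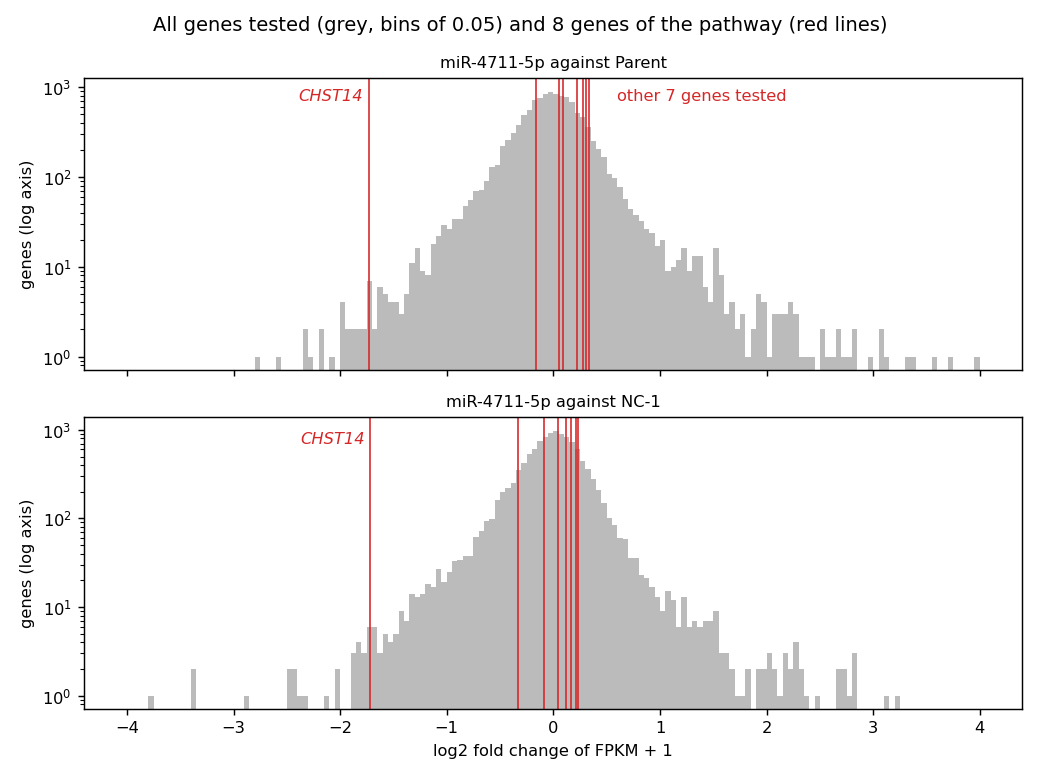
Log2 fold changes of FPKM + 1 of the 12040 genes tested (grey, number of genes per bin on a log axis) against Parent and against NC-1, with the 8 tested enzymes as red lines. CHST14 stands at -1.73 and -1.72, in the lower tail of all genes, while the other 7 enzymes lie between -0.33 and 0.34 in both comparisons.

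In the linker, XYLT2 was lower with miR-4711-5p than in NC-1 but not than in Parent, and B4GALT7 passed in no comparison. XYLT2, a xylosyltransferase that starts the chain on the core protein, had 12.2 and 11.3 FPKM in Parent, 15.3 and 16.8 FPKM in NC-1, and 12.5 and 12.6 FPKM in miR-4711-5p. The NC-1 libraries were the highest, and the miR-4711-5p libraries lay just above Parent. Its log2 change was 0.42 ± 0.07 for NC-1 against Parent (limma adjusted p = 0.00586), -0.33 ± 0.07 for miR-4711-5p against NC-1 (limma adjusted p = 0.00767) and 0.09 ± 0.07 against Parent (limma adjusted p = 0.296). The call against NC-1 was lost without the first miR-4711-5p library (-0.32, limma adjusted p = 0.0564), and at equal FPKM sums XYLT2 passed against Parent (0.22, limma adjusted p = 0.0279). B4GALT7, which adds the first galactose, had 14.6 and 13.5 FPKM in Parent, 12.7 and 13.9 FPKM in NC-1, and 12.5 and 12.4 FPKM in miR-4711-5p. All 4 controls exceeded both miR-4711-5p libraries, as for 26.3% of all tested genes, and no comparison of B4GALT7 passed the threshold (-0.16 against Parent, limma adjusted p = 0.0835, 95% interval -0.31 to -0.01).

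Among the other linker enzymes, 2 rose against both controls, where 10% of all tested genes were called higher against both. B3GAT3, which adds the glucuronic acid that closes the linker, had 18.0 and 16.8 FPKM in Parent, 15.5 and 20.1 FPKM in NC-1, and 29.2 and 26.3 FPKM in miR-4711-5p. B3GALT6, which adds the next galactose, had 15.9 and 16.0, 12.6 and 11.02, and 21.2 and 20.7 FPKM in the same order. For both genes the miR-4711-5p libraries were above all 4 controls, as for 23.8% of all tested genes. B3GAT3 rose by 0.64 ± 0.11 against Parent (limma adjusted p = 0.00392) and by 0.62 ± 0.11 against NC-1 (limma adjusted p = 0.00498). B3GALT6 rose by 0.37 ± 0.07 and 0.78 ± 0.07 on the log2 scale (limma adjusted p = 0.00409 and 0.000173), and it was lower in NC-1 than in Parent, by -0.41 on the log2 scale (limma adjusted p = 0.0064). FAM20B, which phosphorylates the xylose, and PXYLP1, which removes that phosphate, passed in no comparison, with values of 11.2 to 13.0 and 3.51 to 4.42 FPKM. XYLT1, the other xylosyltransferase, was at or below 0.0461 FPKM in every library.

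The polymerase genes were slightly higher or level with miR-4711-5p. CHSY1, a synthase that carries both sugar transfer activities, had 13.5 and 13.7 FPKM in Parent, 14.5 and 15.0 FPKM in NC-1, and 16.8 and 15.4 FPKM in miR-4711-5p; the miR-4711-5p libraries were the highest of the 6. It was 0.22 ± 0.06 above Parent on the log2 scale (limma adjusted p = 0.0194), a call lost without the first Parent, the second Parent or the first miR-4711-5p library (limma adjusted p = 0.0791, 0.0639 and 0.136), and 0.12 ± 0.06 against NC-1 (limma adjusted p = 0.147). CHPF2, a partner that assists polymerisation, had 51.8 and 46.5 FPKM in Parent, 51.9 and 51.5 FPKM in NC-1, and 62.1 and 57.9 FPKM in miR-4711-5p, which were the highest of the 6. It rose by 0.28 ± 0.06 against Parent (limma adjusted p = 0.0101) and by 0.21 ± 0.06 against NC-1 (limma adjusted p = 0.0339). The first call was lost without the first miR-4711-5p library (limma adjusted p = 0.0809), and the call against NC-1 was lost in 6 of 13 alternatives, among them the omission of each NC-1 and each miR-4711-5p library (limma adjusted p up to 0.19).

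CHPF, another partner of the polymerase, had 55.4 and 51.0 FPKM in Parent, 45.7 and 48.1 FPKM in NC-1, and 55.9 and 54.2 FPKM in miR-4711-5p. The miR-4711-5p and Parent libraries overlapped and the NC-1 libraries were the lowest. The change was 0.23 ± 0.06 against NC-1 (limma adjusted p = 0.0163), and this call was lost without the first NC-1, the first miR-4711-5p or the second miR-4711-5p library (limma adjusted p = 0.0845, 0.103 and 0.0621). Against Parent it was 0.05 ± 0.06 (limma adjusted p = 0.505). At equal FPKM sums CHPF passed against Parent too (0.19, limma adjusted p = 0.0266). NC-1 against Parent was -0.18 (limma adjusted p = 0.0536), and it passed without the second Parent library (-0.24, limma adjusted p = 0.0455). CSGALNACT2, which adds the first GalNAc and so commits the linker to chondroitin, had 2.87 and 2.68, 4.65 and 4.56, and 3.84 and 3.17 FPKM in Parent, NC-1 and miR-4711-5p. It was higher in NC-1 than in Parent by 0.57 (limma adjusted p = 0.00669), and miR-4711-5p lay between the controls. Its call against NC-1 (-0.32, limma adjusted p = 0.0333) was lost in 7 of 13 alternatives, among them the omission of any library but the first miR-4711-5p library (limma adjusted p up to 0.179). CSGALNACT1 was at or below 0.274 FPKM, and CHSY3 was listed at 0 in every library.

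The epimerase DSE, which makes the iduronic acid that CHST14 needs beside its GalNAc, was not lower with miR-4711-5p. It had 13.8 and 14.6 FPKM in Parent, 18.7 and 16.6 FPKM in NC-1, and 18.8 and 17.7 FPKM in miR-4711-5p. Both treated groups were above Parent, and they overlapped with each other. DSE rose by 0.34 ± 0.07 against Parent (limma adjusted p = 0.00781) and was also higher in NC-1 than in Parent, by 0.29 ± 0.07 (limma adjusted p = 0.0236). The difference between miR-4711-5p and NC-1 was 0.05 (95% interval -0.12 to 0.21, limma adjusted p = 0.639). The rise against Parent was lost without the first Parent library (limma adjusted p = 0.0538) or the first miR-4711-5p library (limma adjusted p = 0.067), and that of NC-1 was lost in 6 of 13 alternatives, among them the omission of either Parent library, the first NC-1 library or the first miR-4711-5p library (limma adjusted p up to 0.121). The span of DSE, introns included, shares 12171 bases with that of TSPYL1 on the opposite strand. It shares 45467 bases with that of another protein-coding gene on its own strand. The part of these overlaps that lies in exons was not determined. The use of strand in counting is not given in the sources used here, so that the level of DSE is uncertain.

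DSEL, the second epimerase, was higher with miR-4711-5p at a low level. It had 2.26 and 2.15 FPKM in Parent, 1.59 and 1.77 FPKM in NC-1, and 3.11 and 3.12 FPKM in miR-4711-5p. Both miR-4711-5p libraries were above all 4 controls, as for 23.8% of all tested genes. DSEL rose by 0.36 ± 0.09 on the log2 scale from Parent (limma adjusted p = 0.018) and by 0.62 ± 0.09 from NC-1 (limma adjusted p = 0.00204). The call against Parent was lost without the second Parent, the first miR-4711-5p or the second miR-4711-5p library (limma adjusted p up to 0.0807), and DSEL kept its call against NC-1 in 13 of 13 alternatives. The ratio of CHST14 to DSE in FPKM, which sets the sulfotransferase beside the epimerase in each library, was 0.982 and 0.886 in Parent, 0.704 and 0.784 in NC-1, and 0.171 and 0.190 in miR-4711-5p.

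**Figure D4:**
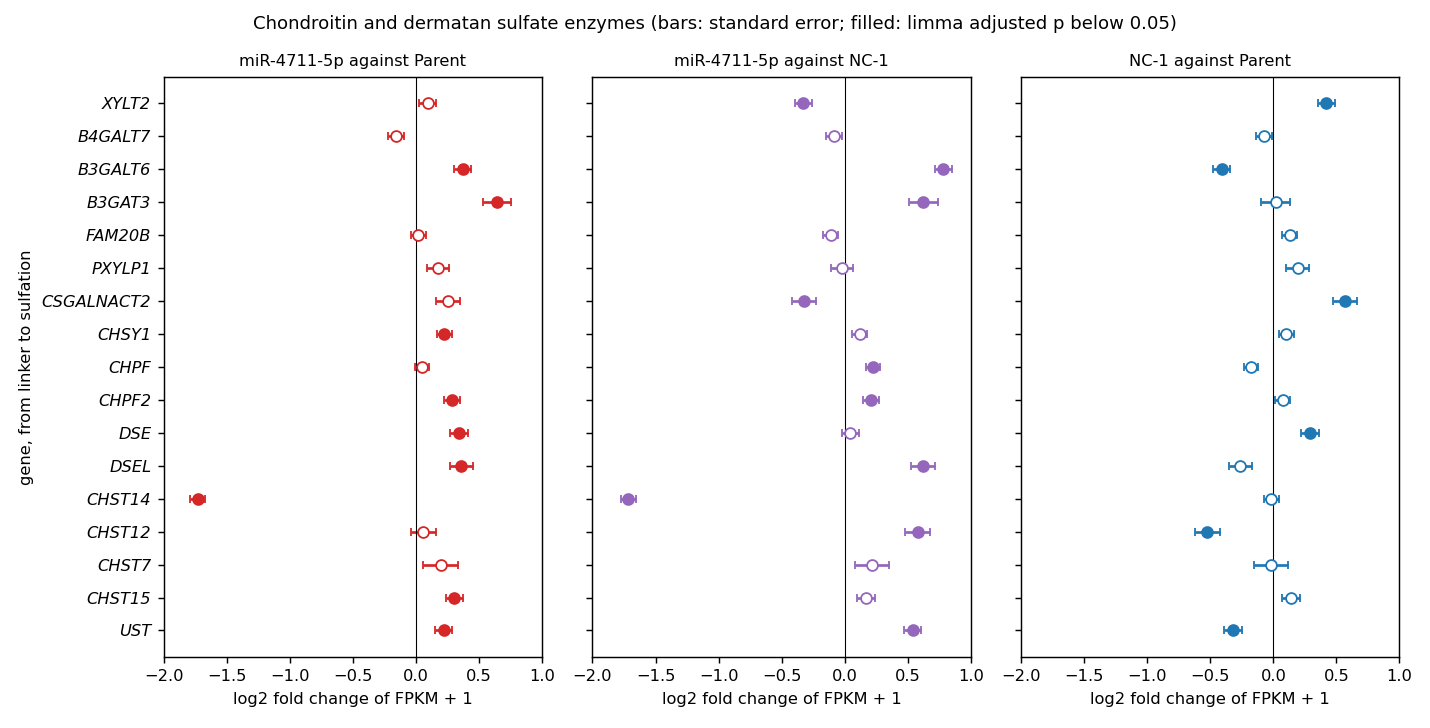
Log2 fold changes of FPKM + 1 with SE of the 17 tested chondroitin and dermatan sulfate enzymes, ordered from the linker to sulfation, in the 3 comparisons; filled points passed a limma adjusted p of 0.05. CHST14 lies at -1.73 and -1.72 in the comparisons with miR-4711-5p and at -0.02 between the controls, and all other points lie between -0.52 and 0.78.

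The 4 enzymes that sulfate GalNAc at carbon 4 are CHST14, mainly in dermatan, and CHST11, CHST12 and CHST13, mainly in chondroitin. CHST12 had 9.32 and 9.08 FPKM in Parent, 6.90 and 5.38 FPKM in NC-1, and 9.55 and 9.64 FPKM in miR-4711-5p. It was level with Parent (0.06, 95% interval -0.18 to 0.29, limma adjusted p = 0.679) and higher than in NC-1 by 0.58 ± 0.10 (limma adjusted p = 0.00367). Its 3′ UTR of 14600 nt holds 2 7mer-m8 matches. CHST12 in NC-1 differed from Parent by -0.52 ± 0.10 (limma adjusted p = 0.0104), a call lost without the first or the second Parent library (limma adjusted p up to 0.0732). CHST11 was below the level for testing, with 0.173 and 0.161 FPKM in Parent, 0.245 and 0.114 FPKM in NC-1, and 0.0402 and 0.0807 FPKM in miR-4711-5p. Both miR-4711-5p values were the lowest, but values this low rest on few reads, and no change is given for CHST11. CHST13 was listed at 0 in every library.

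CHST14 was thus the most expressed of these 4 genes in the controls and CHST12 with miR-4711-5p. CHST14 held 58.9% and 58.4% of their summed FPKM in Parent, 64.9% and 70.3% in NC-1, and 25.1% and 25.7% in miR-4711-5p. The sum itself was 23.1 and 22.2 FPKM in Parent, 20.3 and 18.5 FPKM in NC-1, and 12.8 and 13.1 FPKM in miR-4711-5p. The ratio of CHST14 to CHST12 was 1.46 and 1.43, 1.91 and 2.42, and 0.337 and 0.349 in the same order. The ratio of CHST14 to CHST11 had no such order, with 78.4 and 80.5 in Parent, 53.8 and 115 in NC-1, and 80.1 and 41.7 in miR-4711-5p, and it rests on CHST11 values of at most 0.245 FPKM. These ratios and shares are descriptions of messenger RNA levels, and no sulfation was measured.

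None of the tested sulfotransferases that act at other carbons was called lower with miR-4711-5p. CHST15, which adds a further sulfate at carbon 6 of GalNAc that already carries one at carbon 4, had 10.2 and 9.06 FPKM in Parent, 10.34 and 11.03 FPKM in NC-1, and 12.23 and 12.003 FPKM in miR-4711-5p. Its miR-4711-5p libraries were above all 4 controls, as for 23.8% of all tested genes. The rise was 0.30 ± 0.07 against Parent (limma adjusted p = 0.0119), lost without the second Parent library or either miR-4711-5p library (limma adjusted p = 0.0598, 0.0795 and 0.058). Against NC-1 it was 0.17 ± 0.07 (limma adjusted p = 0.1002), and it passed at equal FPKM sums (0.22, limma adjusted p = 0.0402). UST, which sulfates the uronic acid at carbon 2, had 5.999 and 5.69, 4.36 and 4.604, and 6.78 and 7.15 FPKM. UST was called lower in NC-1 than in Parent, at -0.38 to -0.25 on the log2 scale over 13 alternatives. That difference lost its call without the first Parent or the first NC-1 library. With miR-4711-5p, UST rose by 0.54 ± 0.07 against NC-1 (limma adjusted p = 0.00104). Its call against Parent (0.22, limma adjusted p = 0.0389) was lost in 9 of 13 alternatives, among them the omission of any of the 6 libraries (limma adjusted p up to 0.182).

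CHST3 and CHST7 sulfate GalNAc of chondroitin at carbon 6. CHST3 was at or below 0.0305 FPKM in every library, was not tested, and was listed at 0 in the second miR-4711-5p library. CHST7 had 1.16 to 1.91 FPKM and passed in no comparison. Over all 8 sulfotransferases of the pathway, CHST14 made up 33.4% and 33.9% of the summed FPKM in Parent, 36.4% and 36.6% in NC-1, and 9.68% and 9.86% in miR-4711-5p. The sum of the 8 was 40.7 and 38.2, 36.2 and 35.6, and 33.3 and 34.2 FPKM in the same order.

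**Figure D5:**
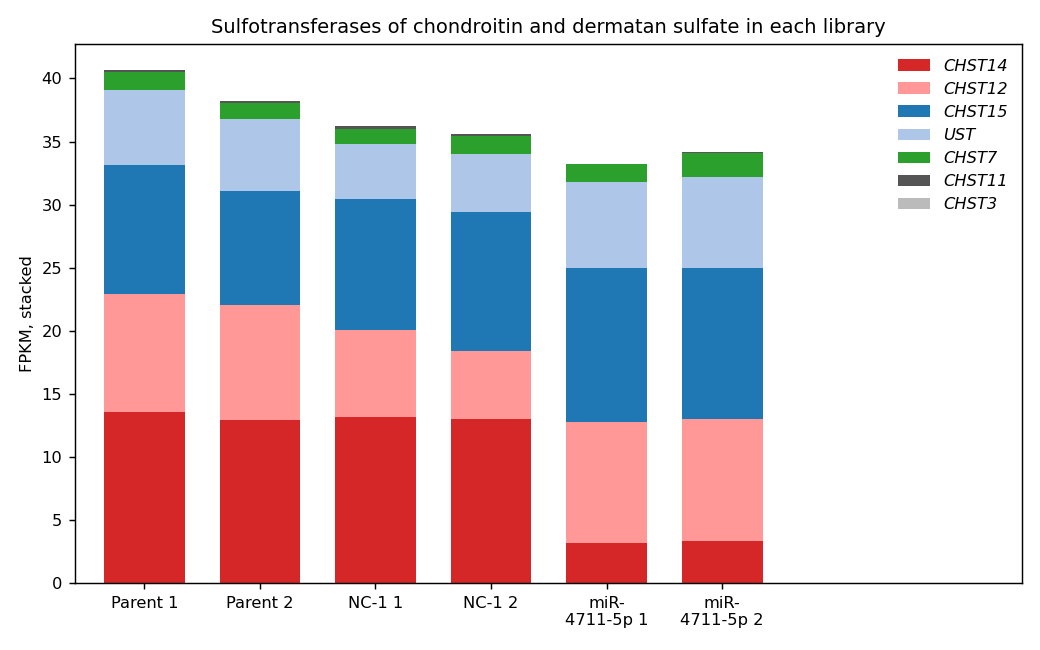
Stacked FPKM of the sulfotransferases of chondroitin and dermatan sulfate in each library, on a linear axis from 0; CHST13 was listed at 0 and is not drawn. CHST14 makes up 33.4% to 36.6% of the stack in the 4 control libraries and 9.68% and 9.86% in the miR-4711-5p libraries.

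Of all 23 enzymes of the pathway, 17 were tested. Against Parent, 8 were higher and 1, CHST14, was lower, where 18.7% of all genes were called higher and 24.7% lower. Against NC-1, 7 were higher and CHST14, XYLT2 and CSGALNACT2 were lower, where 18.4% of all genes were called higher and 21.2% lower. Both comparisons share the miR-4711-5p libraries. The median change of the 17 enzymes was 0.22 against Parent and 0.17 against NC-1, and it was 0.02 for NC-1 against Parent, where 3 were higher and 3 lower beside 12.1% and 15.1% of all genes. Against Parent the number called fell from 9 to 5 without the second Parent library and to 3 without the first miR-4711-5p library, and for NC-1 against Parent it fell from 6 to 3 without the first Parent library.

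The genes that supply the pathway with nucleotide sugars and with the sulfate donor PAPS contained another large decrease. Of 14 genes, all tested, 1 rose and 2 fell against Parent, and 3 rose and 4 fell against NC-1, with medians of 0.00 and -0.04. Of all genes tested, 18.7% rose and 24.7% fell against Parent and 18.4% rose and 21.2% fell against NC-1. PAPSS2, a PAPS synthase, had 4.03 and 4.52 FPKM in Parent, 5.10 and 5.10 FPKM in NC-1, and 1.15 and 1.40 FPKM in miR-4711-5p. Both miR-4711-5p libraries were far below the controls. PAPSS2 fell by 1.21 ± 0.09 against Parent (limma adjusted p = 9.27e-05) and by 1.43 ± 0.09 against NC-1 (limma adjusted p = 5.06e-05) on the log2 scale. Its 3′ UTR of 1735 nt holds the 8mer shown above, at chr10:89506543-89506550, with a 7mer-m8 at chr10:89507423-89507429 and 2 7mer-A1 matches. The coding sequences of PAPSS2 and PAPSS1 each hold a 7mer-m8 too. PAPSS1, the other PAPS synthase, was higher in level and changed less, with 24.6 to 25.2 FPKM in the controls and 19.0 and 21.7 FPKM in miR-4711-5p. PAPSS1 fell by 0.28 relative to Parent (limma adjusted p = 0.0132) and by 0.29 relative to NC-1 (limma adjusted p = 0.0121). The first call was lost at equal FPKM sums and without either Parent library or the first miR-4711-5p library (limma adjusted p up to 0.101), and the second without either NC-1 library or the first miR-4711-5p library (limma adjusted p up to 0.0701). UAP1, which makes UDP-N-acetylhexosamines, rose from 16.8 and 19.3 FPKM in Parent and 16.5 and 17.2 FPKM in NC-1 to 28.2 and 27.0 FPKM, by 0.59 and 0.68 on the log2 scale (limma adjusted p = 0.000725 and 0.000436).

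Among the 25 core proteins that can carry these chains, 12 were tested. Against Parent 3 were higher and 5 lower, and against NC-1 1 was higher and 5 were lower, with medians of 0.06 and -0.04, where the shares of all genes were 18.7% higher and 24.7% lower, and 18.4% and 21.2%. THBD, thrombomodulin, had 55.7 and 50.1 FPKM in Parent, 60.2 and 62.2 FPKM in NC-1, and 25.3 and 26.0 FPKM in miR-4711-5p. SDC1, syndecan-1, had 168 and 158, 152 and 154, and 80.4 and 81.9 FPKM in the same order. For both genes, the miR-4711-5p means were 0.419 to 0.53 times those of the controls. THBD fell by 1.01 against Parent and 1.22 against NC-1 (limma adjusted p = 2.62e-05 and 1.4e-05), and SDC1 fell by 0.999 and 0.91 (limma adjusted p = 9.3e-06 and 1.53e-05). SDC4, syndecan-4, had 166 to 185 FPKM in the controls and 251 and 256 FPKM in miR-4711-5p (0.49 and 0.59, limma adjusted p = 0.000185 and 8.89e-05). APLP2, an amyloid precursor-like protein, had 703 to 772 FPKM in the controls and 588 and 598 FPKM in miR-4711-5p (-0.26 and -0.37, limma adjusted p = 0.00133 and 0.000296). None of these 4 had a 7mer or 8mer in its longest 3′ UTR, and all 4 kept both calls in 13 of 13 alternatives.

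Of the 11 lysosomal and extracellular enzymes that take the chains apart, all tested, 3 rose and 2 fell against Parent, and 1 rose and 3 fell against NC-1, with medians of 0.06 and 0.01. Among all genes 18.7% rose and 24.7% fell in the first comparison and 18.4% and 21.2% in the second. HYAL1, a hyaluronidase that also cuts chondroitin, had 2.51 and 2.01 FPKM in Parent, 1.70 and 1.36 FPKM in NC-1, and 0.927 and 0.809 FPKM in miR-4711-5p (-0.80 against Parent, limma adjusted p = 0.00272). Against NC-1 it was -0.43 (limma adjusted p = 0.035), and this call was lost without filtering and without the first NC-1 library or either miR-4711-5p library (limma adjusted p up to 0.14). IDS, the iduronate sulfatase, had 64.6 to 76.1 FPKM in the controls and 101 and 100 FPKM in miR-4711-5p (0.57 and 0.42, limma adjusted p = 0.00016 and 0.000754). HEXA, a hexosaminidase subunit, had 79.0 to 81.7 FPKM in the controls and 67.3 and 69.3 FPKM in miR-4711-5p (-0.22 and -0.23, limma adjusted p = 0.00561 and 0.00501), and the first of these calls was lost at equal FPKM sums (-0.08, limma adjusted p = 0.145).

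The 5 tested genes whose pattern was most like that of CHST14 were GTF3A, FCF1, CHCHD3, TAGLN2 and CDH1. Likeness was the Euclidean distance of log2(FPKM + 1), centred on the Parent mean, over the 6 libraries, and it was 0.10, 0.22, 0.26, 0.28 and 0.30 in that order. GTF3A, which encodes the transcription factor IIIA, had means of 57.8 ± 0.852 FPKM in Parent, 55.2 ± 1.30 FPKM in NC-1 and 16.1 ± 0.398 FPKM in miR-4711-5p. E-cadherin (CDH1) had 115 ± 1.66, 110 ± 0.128 and 29.6 ± 1.81 FPKM. None of these 5 is on the lists of the sugar chain pathway. In the longest 3′ UTR, GTF3A and CDH1 had an 8mer, FCF1 and TAGLN2 had a 7mer-m8, and CHCHD3 had neither. Of all tested genes with an annotated 3′ UTR, 18.4% held a 7mer or 8mer there and 3.61% an 8mer. The 5 genes were chosen for their likeness to CHST14 in these same values, and a link between matches and decreases was not tested.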

How the data were processed

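Libraries were made with a stranded mRNA kit and sequenced by the authors. The authors deposited a table of FPKM per gene symbol for each library. The submitters' processing notes name TopHat2 2.1.1, Bowtie2 2.3.5.1, SAMtools 1.2, Cufflinks 2.2.1, Cuffdiff and hg19. The study's methods name other versions of TopHat, Bowtie2 and SAMtools, and Cuffnorm for the FPKM. Annotation and strand options are not given in the sources used here. Groups were taken from the labels.

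The deposited FPKM appear already scaled between libraries: median-of-ratios factors were 1.0058 to 1.0072 while FPKM sums differed. The 6 tables were joined by symbol. Genes averaging 1 FPKM or more were compared as log2(FPKM + 1) with limma 3.58.1 (R 4.3.3; trended empirical Bayes, 1 fit of 3 groups, two-sided, Benjamini-Hochberg over 12040 genes, threshold 0.05), tested on simulated data beforehand. Log2 fold changes on this scale understate changes of low genes. The lists of enzymes, and the rule for named genes (all 23 enzymes; from each further list the 4 largest changes against NC-1 called alike against both controls; the 5 genes nearest to CHST14), were chosen with earlier results of these data known. Seed matches were searched with Python 3.11.15 and pysam 0.24.0, and 592 symbols were matched through older names. Alternatives were the pseudocount (0.1), no filter, rescaling, 2 groups alone, no trend, a replicate block, a 1.5-fold requirement and each library left out. Same-numbered libraries did not deviate together (correlations of 0.061, 0.0030 and -0.0089).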

Additional observations from a re-analysis of the deposited data

How the results depend on the processing

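The decrease of CHST14 against Parent and NC-1 kept its direction and call under each alternative run. Of 168 alternatives for CHST14 and for the counts of genes, enzymes and matches, 134 left CHST14 on its side of the threshold in the same direction or the count within 1.5 times, whatever its split by direction. With a 1.5-fold requirement, 1490, 1295 and 501 genes passed (miR-4711-5p against Parent, against NC-1, and NC-1 against Parent), with 1, 1 and 0 of the 10 enzymes and 2, 6 and 1 of the 23. Without filtering, 2165 genes and 1 of the 10 enzymes passed for NC-1 against Parent, and with these groups alone 1 of the 10 enzymes did. Leaving out single libraries gave 3164 to 5135, 2815 to 4639 and 1355 to 2296 genes, 1 to 5, 1 to 4 and 1 to 2 of the 10 enzymes, and 3 to 8, 7 to 9 and 3 to 6 of the 23, where a group left with 1 library was assumed to vary like the others. Counting 8mers alone left 1 enzyme with a match.

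For NC-1 against Parent, the sign turned for CHST14 at equal FPKM sums (0.063) and without the first Parent library (-0.047 to 0.015 over the omissions), for B4GALT7 at equal sums (0.0037) and for CHPF2 without the second Parent library (-0.0034 to 0.149). Against Parent it turned for CHPF without the second Parent library (-0.0094 to 0.108), and against NC-1 for DSE without the second NC-1 library (-0.036 to 0.128). None of these values passed the threshold, and the cause was not tested. Of 936 alternatives for the values of single genes, 855 kept direction and call, 73 lost a call and 4 gained it. With the replicate block, 4983, 4564 and 2864 genes and 5, 4 and 2 of the 10 enzymes passed, and CHST14 changed by -1.73, -1.72 and -0.02. The numbers are only names here, and among the genes named the block ended the calls of UST against Parent and HS3ST1 against NC-1. FPKM hold no counts, so that no counting error can be given, and values under 0.1 FPKM could not be compared.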

Other observations

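Heparan sulfate is the related chain that starts from the same linker. Of 21 genes of its synthesis, 10 were tested, of which 3 rose and 2 fell against Parent and 3 rose and 1 fell against NC-1 (all genes tested: 18.7% and 24.7%, and 18.4% and 21.2%), with medians of 0.16 and 0.11. NDST1, which removes the acetyl group and adds N-sulfate, had 20.2 and 20.1 FPKM in Parent, 19.4 and 20.0 FPKM in NC-1, and 15.1 and 15.0 FPKM in miR-4711-5p (-0.40 and -0.36, limma adjusted p = 0.000736 and 0.00123). EXT1, of the heparan polymerase, rose from 37.8 and 38.0 FPKM in Parent and 42.0 and 43.0 FPKM in NC-1 to 49.8 and 48.7 FPKM (0.37 and 0.21, limma adjusted p = 0.000606 and 0.00829), and its call against NC-1 was lost without the first miR-4711-5p library (limma adjusted p = 0.0631). In the longest 3′ UTR, NDST1 and EXT1 held no 7mer or 8mer, and HS3ST1 held a 7mer-A1. HS3ST1, a 3-O-sulfotransferase of heparan sulfate, had 86.7 to 94.1 FPKM in the controls and 102 and 100 FPKM in miR-4711-5p (0.20 and 0.15, limma adjusted p = 0.0125 and 0.0427). Its call against NC-1 was lost in 9 of 13 alternatives, among them the omission of any library but the second NC-1 library (limma adjusted p up to 0.179), and that against Parent without the second Parent library or either miR-4711-5p library (limma adjusted p up to 0.0821).

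Of the 8 carbohydrate sulfotransferases of the CHST family that act on other sugar chains, 1, CHST10, was expressed enough to test and passed in no comparison by limma. The 8 genes together summed to 2.18 to 3.25 FPKM in each library.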
